A study of Mus musculus with 7 samples.

Results

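HCN and T-type calcium channels were examined as 6 genes, Hcn2, Hcn3 and Hcn4 of the hyperpolarization-activated cation channels and Cacna1g, Cacna1h and Cacna1i of the low-voltage-activated calcium channels. They were chosen by symbol from the 24062 genes counted in 7 Patch-seq samples. Each sample held the contents of 2 ZsGreen-positive neurons of the medial preoptic area (MPA), drawn into the recording pipette after the slice had been warmed by 5 °C. In the Esr1-ZsGreen (ERα-ZsGreen) mice used here, a transgene lights up neurons with estrogen receptor alpha in green, and the adult mice used for slices were stated to be female. All 7 samples shared this strain, the reporter fluorescence, the recording and the warming. They were grouped by whether the firing rate rose on warming by more than a cutoff set by the authors. This gave 4 samples of temperature-responsive (TR) neurons and 3 samples of non-responsive (NR) neurons, whose firing may have risen by less. The study combined neurons of the medial preoptic nucleus and the rostral MPA, and which of these sites each sample came from is not given. The sources used here also do not say which animal each sample came from, so the p-values below measure the spread between samples.

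HCN channels open when the membrane is hyperpolarized and carry an inward current that pulls a resting neuron back toward spike threshold, and binding of cAMP makes most of them open more readily. T-type calcium channels open close to the resting potential and give the low-threshold calcium spike on which a burst of action potentials can ride. Both currents are known as pacemaker currents in thalamic and hypothalamic neurons and in the heart, and both help to set the rate of spontaneous firing. The neurons here were sorted by how that rate changed on warming, not by the rate itself.

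Within each family the genes are close relatives, so that the longest stretch of identical sequence between a pair of members shows how far a single read could match both. These stretches were found by comparing the longest GENCODE M21 transcript of each gene, and all lie in coding sequence. They are printed 5′ to 3′ on the transcript strand, with no part set in capitals because the whole of each is shared. The HCN genes shared at most 33 bases, in single exons at chr10:79717185-79717217 (Hcn2 with Hcn3, plus strand), chr10:79728926-79728957 (Hcn2 with Hcn4, plus strand) and chr3:89150464-89150495 (Hcn3 with Hcn4, minus strand) of GRCm38.
Hcn2 and Hcn3: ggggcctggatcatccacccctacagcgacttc
Hcn2 and Hcn4: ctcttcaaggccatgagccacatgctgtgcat
Hcn3 and Hcn4: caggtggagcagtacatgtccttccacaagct

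The T-type genes shared longer stretches, of 41 to 68 bases. That of Cacna1g with Cacna1h spans an exon junction between chr11:94461963 and 94462168 (minus strand), that of Cacna1g with Cacna1i lies at chr11:94443187-94443254 (minus strand), and that of Cacna1h with Cacna1i lies at chr17:25383183-25383232 (minus strand).
Cacna1g and Cacna1h: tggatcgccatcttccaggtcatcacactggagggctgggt
Cacna1g and Cacna1i: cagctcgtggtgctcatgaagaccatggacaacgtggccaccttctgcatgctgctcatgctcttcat
Cacna1h and Cacna1i: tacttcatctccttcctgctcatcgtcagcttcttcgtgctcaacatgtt

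Few reads could therefore be shared between members. Of all windows of 50 bases, none of Hcn2 or Hcn4 occurred in a transcript of another gene on either strand, against 0.23% for Cacna1g and 0.21% for Cacna1i, all of them in another T-type gene. For Cacna1h the share was 1.34%, in Cacna1i and in Tpsg1, whose exon overlaps the 3′ end of Cacna1h by 158 bases. For Hcn3 it was 16.75%, all in Pklr, which is read from the opposite strand and shares 711 noncoding bases (17.12% of the exons of Hcn3) at chr3:89146074-89146784. Pklr itself had 2 to 9 counts per sample and Tpsg1 at most 6, and whether the authors' counting used strand is not given in the sources used here.

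The samples differed in more than their temperature response. Totals were 1914497 to 2814360 counts in TR and 3309361 to 5125280 in NR samples, and genes with at least 1 count numbered 19852 to 21177 in TR and 17818 to 19820 in NR samples, neither overlapping. A floor of 3 counts corresponded to 0.568 to 1.63 CPM (the normalised read count, scaled to a common total after TMM adjustment), which covers counting error only. All 5 neuronal markers were found in each sample, but Esr1 had only 10 to 27 counts per sample. Transcripts of other cells were present throughout, with summed levels of 882 to 1270 CPM for 5 astrocyte, 2372 to 3801 CPM for 5 oligodendrocyte and 273 to 326 CPM for 5 microglia markers. The Y-linked Ddx3y had 684 to 1150 counts per sample and Xist at most 14, against the stated sex of the mice. A gene was tested if 3 or more samples had 10 or more counts of it, which left 14407. At an adjusted p under 0.05, edgeR called 4327 of them (30.0%), with 14.9% of tested genes lower and 15.1% higher in TR neurons. Higher genes thus made up 50.3% of the calls, against 62.1% under upper quartile scaling and 37.3% with an offset for GC content. That offset left 24.4% of genes called (36.7% at an unadjusted p under 0.05). Adding each sample's tally of detected genes to the model left 1 gene (0.00694%) called, and 14.3% at an unadjusted p under 0.05.

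To ask whether the channels that drive spontaneous firing differ with the temperature response, the 6 genes were compared between TR and NR neurons. Hcn2 was lower in TR neurons by 1.89-fold (95% interval 1.53 to 2.34), whereas Hcn3, Cacna1g, Cacna1h and Cacna1i were not called in either direction and Hcn4 had too few counts to be tested. Of the 5 members tested, 1 was thus called lower and none higher, beside the 14.9% and 15.1% of all tested genes. In pools of this kind, fewer cells that use a gene and less of its RNA per cell cannot be told apart.

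**Figure D1:**
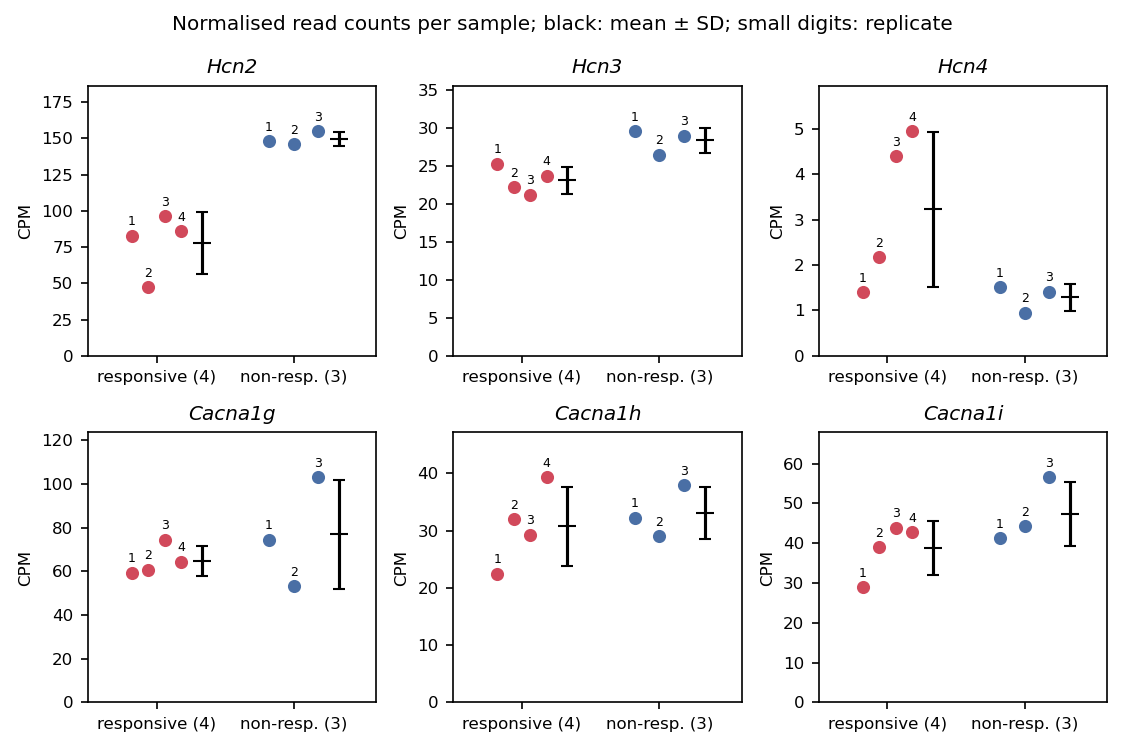
Normalised read counts (CPM, linear axes from 0) of the 6 channel genes in each TR (red, n = 4) and NR (blue, n = 3) sample, with the replicate number beside each point and the mean ± SD in black. For Hcn2 the TR samples lie between 47.2 and 96.2 CPM and the NR samples between 146 and 155 CPM, while the points of the T-type genes overlap between groups.

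Hcn2 encodes one of the main HCN subunits of the brain, a channel whose opening is strongly shifted by cAMP. It lies on chromosome 10 of GRCm38 from 79716634 to 79736108 on the plus strand, with 8 exons. Its level was 82.8, 47.2, 96.2 and 86.0 CPM in TR replicates 1 to 4 and 148, 146 and 155 CPM in NR replicates 1 to 3, from 87 to 770 counts. All TR samples were below all NR samples, as held for 18.2% of all genes tested, and TR replicate 2 was the lowest. The means were 78.0 ± 21.3 CPM (SD, n = 4) and 149 ± 4.75 CPM (SD, n = 3), so that the coefficient of variation was 27.4% among TR and 3.18% among NR samples. On the log2 scale the difference (TR minus NR) was -0.92 with a standard error of 0.147 (edgeR adjusted p = 0.000303), and without TR replicate 2 it was -0.75 (adjusted p = 0.000760, edgeR).

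The count of Hcn2 was also set against those of the other tested members, a measure that does not use the library total. TR samples held 2.12 to 4.53 Hcn2 counts per Hcn3 count and NR samples 4.99 to 5.50, without overlap. Per Cacna1g count there were 0.777 to 1.39 Hcn2 counts in TR and 1.51 to 2.74 in NR samples, again without overlap. The same ratio to Cacna1h was 1.47 to 3.69 in TR and 4.09 to 5.03 in NR samples. Of these 4 ratios, that to Cacna1i alone overlapped, at 1.21 to 2.85 in TR and 2.74 to 3.57 in NR samples. These ratios all share the counts of Hcn2 and are given without a test. How often such ratios fail to overlap among all genes was not computed. In CPM, 35.4% of tested genes did not overlap between groups in either direction.

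Base composition of the whole transcript set Hcn2 apart from most genes. The G and C content of the Hcn2 transcript was 65.4%, higher than that of 99.7% of the tested genes, whose median was 49.8%. The most GC-rich 100 bases lie at chr10:79716675-79716774 (plus strand), at the start of the coding sequence, with 88.0% G and C. Such a stretch was not particular to Hcn2, since those of the other members held 82.0% (Cacna1g) to 94.0% (Cacna1i). The stretch of Hcn2 is printed to show its composition, with runs of at least 10 bases made of G and C alone in capitals.
Hcn2, bases 42 to 141 of the transcript: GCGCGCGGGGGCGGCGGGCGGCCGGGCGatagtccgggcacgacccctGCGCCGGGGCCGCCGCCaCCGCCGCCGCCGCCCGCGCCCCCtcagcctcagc

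The mean GC content of the transcripts that the reads fell on was 47.76% to 48.17% in TR and 48.64% to 48.91% in NR samples, so the groups also stood apart in this measure. With an offset for GC content in each sample, the log2 fold change of Hcn2 was -0.62 (adjusted p = 0.00165, edgeR), a smaller fall that still passed the threshold. With detected genes added to the model, the value was -0.71 and failed the test (edgeR adjusted p = 0.199). Since this tally did not overlap between groups, it and the temperature response cannot be told apart.

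Summed levels of endothelial, astrocyte and GABAergic markers were higher in TR samples without overlap, the opposite direction to Hcn2. The summed level of 5 endothelial markers was 81.8 to 231 CPM in TR and 12.3 to 56.1 CPM in NR samples, with 3 of the 5 called higher and none at 0 throughout. That of 5 astrocyte markers was 1090 to 1270 CPM in TR and 882 to 1075 CPM in NR samples, with 2 called higher (Gja1 and Slc1a3) and Gfap lower. The 3 GABAergic genes summed to 879 to 1409 CPM in TR and 781 to 849 CPM in NR samples. The part of these markers in the difference of Hcn2 was not tested. Sums overlapped for oligodendrocyte markers (2796 to 3801 CPM in TR and 2372 to 3000 in NR) and microglia markers (273 to 308 and 307 to 326 CPM). Those of the glutamatergic genes (398 to 584 and 523 to 612 CPM) overlapped too. Markers of thalamus (414 to 481 CPM in TR and 338 to 421 in NR), of cortex and hippocampus (185 to 317 and 249 to 264 CPM) and of cerebellum (311 to 432 and 354 to 386 CPM) overlapped between groups.

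Hcn3, on chromosome 3 from 89146074 to 89160196 (minus strand), encodes an HCN subunit that responds little to cAMP. It measured 25.3, 22.2, 21.2 and 23.7 CPM in TR replicates 1 to 4 and 29.6, 26.5 and 29.0 CPM in NR replicates 1 to 3. The TR samples were all below the NR samples, but the log2 fold change of -0.29 (95% interval -0.65 to 0.06) was not called (edgeR adjusted p = 0.204). The means were 23.1 ± 1.77 CPM (SD, n = 4) and 28.4 ± 1.62 CPM (SD, n = 3), from 41 to 144 counts. Of the 6 genes, Hcn3 varied least across samples, by 1.39-fold between the highest and the lowest.

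Hcn4, the main pacemaker channel of the sinoatrial node, lies on chromosome 9 from 58823412 to 58863175 (plus strand) and was near the limit of detection. It had 3, 4, 12 and 14 counts in TR replicates 1 to 4 and 5, 5 and 7 counts in NR replicates 1 to 3, or 50 counts in all. These correspond to 1.40, 2.17, 4.39 and 4.95 CPM in TR and 1.51, 0.947 and 1.41 CPM in NR samples, and the groups overlapped. TR replicates 3 and 4 were the only samples above 10 counts, so the gene fell short of the limit for testing. With every gene of at least 1 count in the fit, the difference was 1.27 ± 0.675 (standard error) on the log2 scale (edgeR adjusted p = 0.154), and a difference was not detectable at this depth.

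Cacna1g encodes the T-type channel that carries the bursts of thalamic relay neurons and lies on chromosome 11 from 94408391 to 94474198 (minus strand). Its level was 59.4, 60.7, 74.6 and 64.4 CPM in TR replicates 1 to 4 and 74.5, 53.2 and 103 CPM in NR replicates 1 to 3. The NR samples enclosed all TR samples, with NR replicate 2 lowest and NR replicate 3 highest of the 7. The log2 fold change was -0.24 (95% interval -0.59 to 0.11, adjusted p = 0.304, edgeR). The result rested on single NR samples, since without NR replicate 2 the gene was called at -0.45 (edgeR adjusted p = 0.0354), and without NR replicate 3 it was 0.04 (adjusted p = 0.879, edgeR). With detected genes added to the model, the value was 0.11 (edgeR adjusted p = 0.894).

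Cacna1h, the T-type gene best known from sensory neurons, lies on chromosome 17 from 25374285 to 25433783 (minus strand). It measured 22.5, 32.0, 29.3 and 39.3 CPM in TR and 32.3, 29.0 and 37.9 CPM in NR replicates, with the lowest and the highest value both in the TR group. The log2 fold change was -0.10 (95% interval -0.47 to 0.28, adjusted p = 0.720, edgeR), and its sign turned with the GC content offset (0.06), with equal totals (0.06) and without TR replicate 1 or NR replicate 3 (0.02 in both). No direction can be given for Cacna1h from these samples.

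Cacna1i, whose channel opens and closes more slowly than those of the other T-type genes and is known from the thalamic reticular nucleus, lies on chromosome 15 from 80287238 to 80398279 (plus strand). It measured 29.0, 39.0, 43.9 and 42.8 CPM in TR and 41.3, 44.3 and 56.5 CPM in NR replicates, with TR replicate 1 lowest, NR replicate 3 highest and the others within 39.0 to 44.3 CPM. The log2 fold change was -0.29 (95% interval -0.62 to 0.04, adjusted p = 0.179, edgeR). Summed over the 3 T-type genes, the level was 134 ± 17.2 CPM (SD, n = 4) in TR and 157 ± 36.1 CPM (SD, n = 3) in NR samples, with overlap. Summed over the 3 HCN genes it was 104 ± 22.4 CPM (SD, n = 4) and 179 ± 5.96 CPM (SD, n = 3) without overlap, and Hcn2 made up most of that sum.

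**Figure D2:**
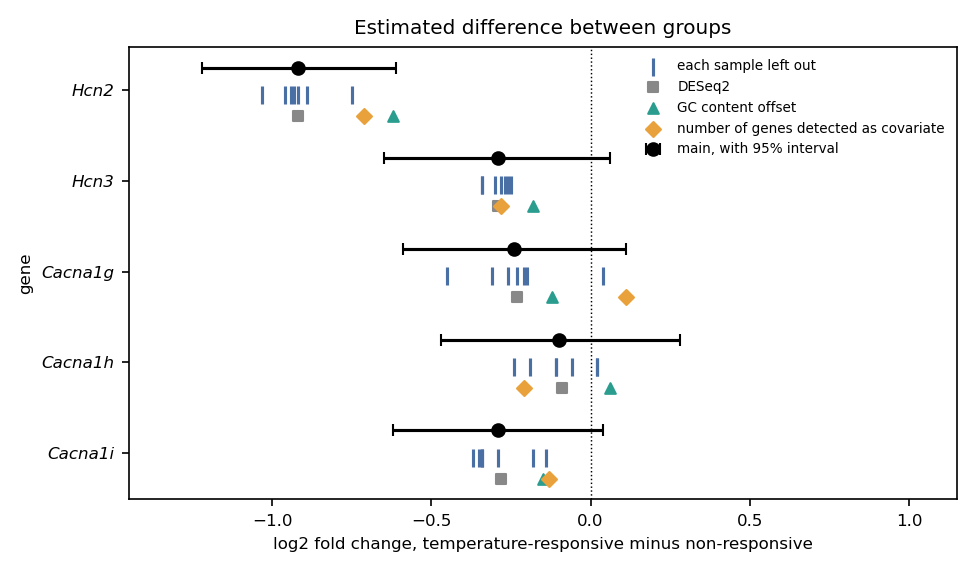
Estimated log2 fold change (TR minus NR) of the 5 tested channel genes, with the edgeR estimate and its 95% interval in black, estimates with each sample left out as blue ticks, and DESeq2, the GC content offset and a model with detected genes added as grey, green and orange symbols. All estimates drawn for Hcn2 lie between -1.03 and -0.62, while those of Cacna1g and Cacna1h fall on both sides of 0.

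Levels between genes were compared per kilobase of merged exons, in CPM per kilobase. Hcn2 was highest at 24.4 ± 6.68 (SD, n = 4 TR) and 46.8 ± 1.49 (SD, n = 3 NR), and in every sample it was at least 2.46 times Cacna1g, the next gene. Cacna1g (6.39 ± 0.678 in TR and 7.58 ± 2.44 in NR) and Hcn3 (5.56 ± 0.426 and 6.83 ± 0.391) did not differ beyond their spread, since Cacna1g was the higher in 5 of 7 samples. The length of Hcn3 includes the 711 bases shared with Pklr. Whether reads there were counted is not known, so the level of Hcn3 and its family share may be too low. Cacna1i (3.92 ± 0.688 and 4.80 ± 0.811) was below Hcn3 and above Cacna1h (3.15 ± 0.713 and 3.39 ± 0.462) in all 7 samples, although the ranges of each pair overlapped between samples. Hcn4 was lowest in every sample, at 0.155 to 0.810. Among all tested genes, Hcn2 ranked above 86.5% by this measure and the other 4 tested members above 28.7% to 47.7%.

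**Figure D3:**
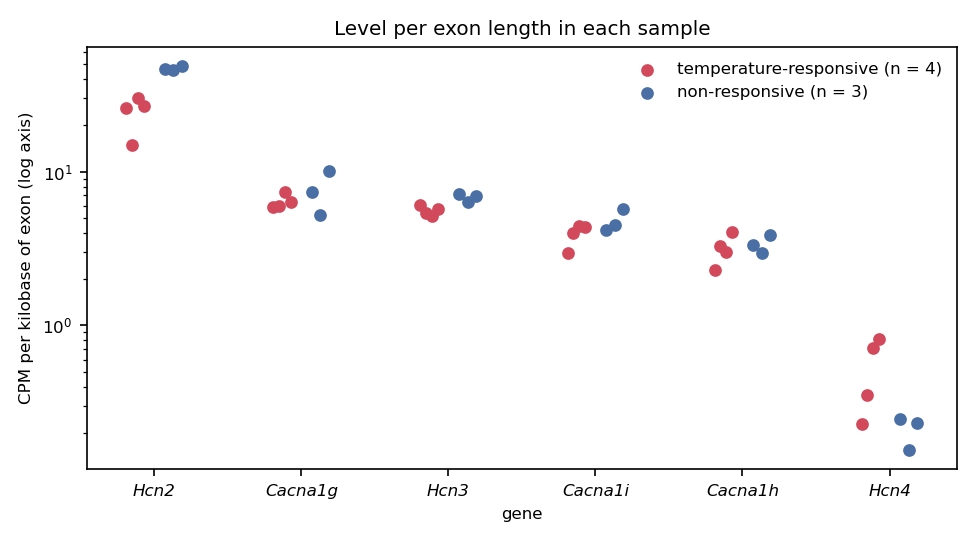
Level of each channel gene per exon length (CPM per kilobase, log axis) in the 4 TR (red) and 3 NR (blue) samples, with genes in order of their mean. Hcn2 stands above all others in each sample (14.8 to 48.5), the next 4 genes lie between 2.30 and 10.1, and Hcn4 stays below 1.

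The make-up of the T-type family per kilobase was alike in its group means. Cacna1g made up 47.7% ± 4.33 (SD, n = 4) of the 3 genes in TR and 47.4% ± 5.34 (SD, n = 3) in NR samples. Cacna1h made up 23.3% ± 3.39 and 21.8% ± 1.89, and Cacna1i 29.0% ± 1.69 and 30.9% ± 3.91. Of the 3 HCN genes examined here, Hcn2 made up 79.2% ± 4.98 (SD, n = 4) in TR and 86.9% ± 0.621 (SD, n = 3) in NR samples, from 72.1% to 83.8% against 86.2% to 87.5%. The share of Hcn3 was correspondingly 14.2% to 26.1% in TR and 12.2% to 13.3% in NR samples.

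GC-rich transcripts were a shared feature of the 6 genes that the choice by symbol had not used. The longest transcripts of the other 5 held 58.0% to 60.0% G and C, and the tested ones among them exceeded 90.3% to 95.4% of all tested genes. The T-type genes were the larger, with 35 to 38 merged exons and coding sequences of 6597 to 7143 bases, against 8 merged exons and 2337 to 3603 coding bases in the HCN genes.

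The genes with the pattern most like that of each member were found by the root mean squared difference of log2 CPM over the 7 samples, after each gene was centred on its mean. Close to Hcn2 was Pcyt1b, an enzyme of phosphatidylcholine synthesis (difference 0.098), where the median over 14406 genes was 0.61. The nearest to Hcn3 were Ap3b2 (0.040) and Trappc4 (0.042), and to Cacna1i they were Cpne7 (0.045) and Prkdc (0.048). Slc35c2 (0.064) and Arid5a (0.083) came nearest to Cacna1g, and Fam189b and Bbs1 (0.080 each) to Cacna1h. These genes were the nearest of all tested, members included, so no pair of members could lie closer. Pairs of members differed by 0.166 (Cacna1h and Cacna1i) to 0.581 (Hcn2 and Cacna1h). The median over all genes was 0.30 for Hcn3 and 0.35 to 0.38 for the T-type genes. T-type pairs, at 0.166 to 0.265, were below the medians of both genes. Pairs with Hcn2, at 0.454 to 0.581, were below its own median but above that of the other gene.

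Genes known to bind or modify these channels, and other genes of the same currents, were followed in 7 lists of 86 genes, of which 76 were tested. Of these, 8 were called higher and 10 lower in TR neurons, or 23.7% beside the 30.0% of all tested genes. The medians of the lists lay between -0.15 and 0.07 on the log2 scale, against 0.01 over all genes tested. After detected genes entered the model none of the 18 passed (adjusted p from 0.133 to 0.851, edgeR), and with the GC content offset 15 of the 18 did.

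**Figure D4:**
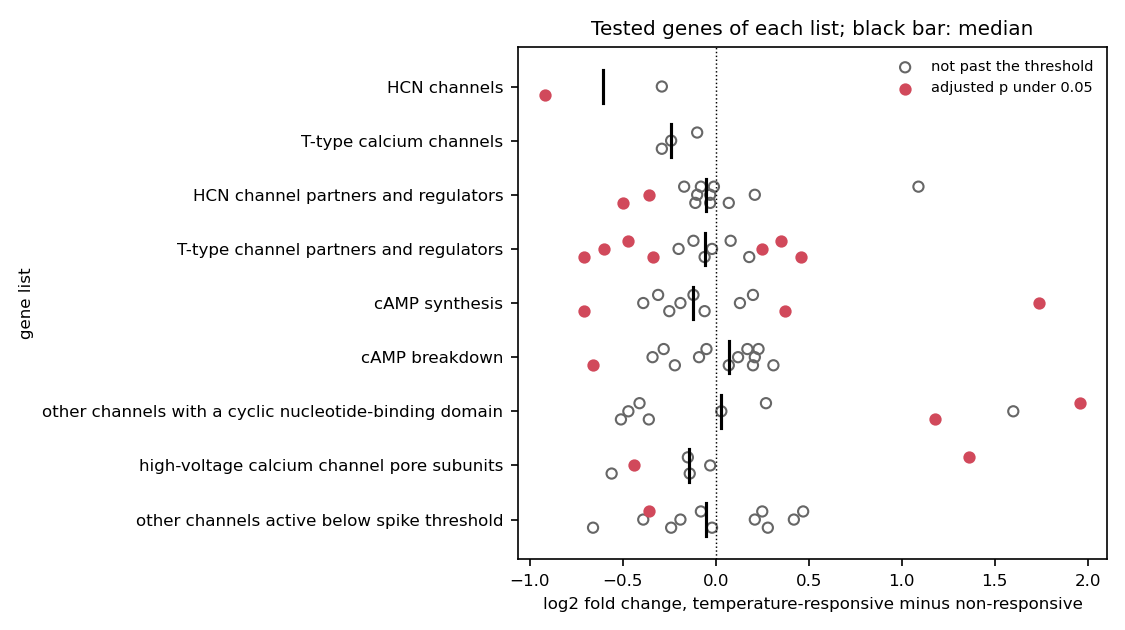
Log2 fold change (TR minus NR) of each tested gene in the 2 channel families and the 7 lists around them, filled where the adjusted p was under 0.05, with the median of each list as a black bar. Hcn2 is the leftmost point, and called genes of the other lists lie on both sides of 0.

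Among 12 HCN partners and regulators, 2 were called lower and none higher. These were Apba2, an adaptor of the Mint family (log2 fold change -0.50, adjusted p = 0.00134, edgeR), and Nedd4l, a ubiquitin ligase (-0.36, adjusted p = 0.00634, edgeR). Pex5l, the brain auxiliary subunit of HCN channels also known as TRIP8b, was not called, with 92.9 ± 16.2 CPM (SD, n = 4) in TR and 99.3 ± 8.32 CPM (SD, n = 3) in NR samples. Nor was Kctd3, a partner of the HCN3 channel, with 90.9 ± 9.60 and 78.7 ± 4.52 CPM. Pex5l and Kctd3 were picked for their known role after their values had been seen.

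Among 13 T-type partners and regulators, 3 were called higher and 4 lower. The falls included Kcnma1, the pore of the large-conductance calcium-activated potassium channel (-0.71, adjusted p = 0.000130, edgeR), and Cachd1, a protein that raises T-type current (-0.60, adjusted p = 0.0228, edgeR). The rises included Klhl1, an actin-binding partner of T-type channels (0.46, adjusted p = 0.0364, edgeR), and Kcnd2, an A-type potassium channel (0.35, adjusted p = 0.0101, edgeR). Neither of these rises passed with the GC content offset. Klhl1 also failed with DESeq2 (adjusted p = 0.0525), with scaling by library size only (adjusted p = 0.0611), with all genes of at least 1 count (adjusted p = 0.0872), with the transcript length offset (adjusted p = 0.0799) and with equal totals (adjusted p = 0.170). Cachd1 failed with equal totals (adjusted p = 0.112, edgeR). It also did not pass without TR replicate 2 (adjusted p = 0.0740, edgeR) or NR replicate 3 (adjusted p = 0.103, edgeR). Kcnd2 did not pass without NR replicate 2 (adjusted p = 0.0550, edgeR), and Klhl1 did not pass without TR replicate 1 or 2 or NR replicate 1 or 2 (adjusted p up to 0.179, edgeR).

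Genes that make and break down cAMP, the ligand of HCN channels, were called in 4 cases. Of 11 genes of cAMP synthesis, the adenylyl cyclase gene Adcy5 was lower in TR neurons (-0.71, adjusted p = 0.00366, edgeR). The stimulatory G protein gene Gnas (0.37, adjusted p = 0.0163, edgeR) and Adcy4 (1.74, adjusted p = 0.0131, edgeR, on 4 to 26 counts) were higher. Gnas did not pass without TR replicate 2, NR replicate 2 or NR replicate 3 (adjusted p from 0.0739 to 0.110, edgeR), and Adcy4 did not without NR replicate 3 (adjusted p = 0.0667, edgeR). Gnas also failed with the transcript length offset (adjusted p = 0.0628, edgeR) and Adcy4 with equal totals (adjusted p = 0.0823, edgeR). Of 13 tested phosphodiesterase genes, Pde2a alone was called, and it was lower (-0.66, adjusted p = 0.00336, edgeR).

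Among 9 tested relatives of the HCN genes with a cyclic nucleotide-binding domain, Cngb1, a subunit of the rod photoreceptor channel (1.96, adjusted p = 0.000214, edgeR), and Kcnh5, a slow potassium channel (1.18, adjusted p = 0.0117, edgeR), were higher. Kcnh5 did not pass without TR replicate 2 (adjusted p = 0.0539, edgeR). Cngb1 had 13 to 56 and Kcnh5 15 to 33 counts per sample. Among 6 tested pore subunits of high-voltage calcium channels, the skeletal muscle gene Cacna1s was higher (1.36, adjusted p = 0.0428, edgeR, on 5 to 30 counts) and Cacna1d lower (-0.44, adjusted p = 0.0248, edgeR). Each of these lost its call without several single samples, Cacna1s without TR replicates 2 or 4 or NR replicate 3 (adjusted p up to 0.207, edgeR) and Cacna1d without any but TR replicate 3 and NR replicate 1 (up to 0.113, edgeR). With equal totals both failed (adjusted p = 0.0801 for Cacna1s and 0.0800 for Cacna1d, edgeR), and Cacna1d also failed with upper quartile scaling (adjusted p = 0.0549, edgeR). Among 12 tested channels that act below spike threshold, Scn8a, the sodium channel of the axon initial segment, was the one gene called (-0.36, adjusted p = 0.00573, edgeR), at 289 ± 18.7 CPM (SD, n = 4) in TR and 372 ± 18.6 CPM (SD, n = 3) in NR samples.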

How the data were processed

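RNA from pools of 2 patched neurons was amplified with the SMART-seq V4 kit and sequenced. The authors aligned reads to mm10 with STAR 2.6.0, removed PCR duplicates with RmDup and deposited raw read counts per gene symbol from htseq-count (HTSeq 0.9.1), without normalization. Since the reads carried no molecular identifiers, this step may have discarded distinct molecules of the same position. The annotation, strand setting and overlap rule are not given in the sources used here.

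Samples were grouped and numbered from their titles. Genes with 10 or more counts in 3 or more samples (14407) entered the quasi-likelihood test of edgeR 4.0.16 under R 4.3.3 (robust, TMM). The test was two-sided, Benjamini-Hochberg adjustment covered all genes, and the threshold was 0.05. The test was checked on simulated data. Standard errors came from the fold change and its F statistic. Log2 CPM used a prior count of 2. No pair within a group agreed within counting error, with chi-square values of 2.04 to 5.32 per degree of freedom. DESeq2 1.42.0, limma 3.58.1, other scalings and filters, covariates, GC and length offsets (mgcv 1.9.3), a replicate block and fits with 1 sample left out served as alternatives.

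Lengths, GC content and coordinates came from GENCODE M21 on GRCm38, the same build as mm10, in which 98.4% of the symbols were found (916 through an older symbol in RefSeq). The members and lists were chosen with earlier results of these data known. Genes named were the members, up to 2 rises and 2 falls of largest size among the called genes of each list, and the 2 genes most like each member in pattern. A result under this rule is not reported here.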

Additional observations from a re-analysis of the deposited data

Results flagged for a closer look

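Of 14 measures of the channel genes, 1 had a single TR sample (replicate 1) well apart from its group, where chance gives about 1 in 20. This was the share of Cacna1i in the summed T-type level per kilobase, which ranged from 26.5% to 30.1% in the 4 TR samples, with a gap of 0.844 of the range between the lowest sample and the next.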

How the results depend on the processing

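Hcn2 stayed lower in TR neurons in all 12 alternatives to the main test and in the 7 fits that each left out 1 sample (-1.03 to -0.75). It passed the threshold in 11 of the 12 and in all 7. The exception was the model with detected genes added (-0.71), and the cause was not tested. Hcn3 and Cacna1i kept their negative sign and passed in none (left-out samples gave -0.34 to -0.25 and -0.37 to -0.14). Cacna1g was 0.11 in that model and -0.45 to 0.04 with samples left out. Cacna1h was 0.06 with totals drawn down to 1914497 counts, 0.06 with the GC content offset and -0.24 to 0.02 with samples left out. Cacna1s was -0.61 with detected genes added. Among the genes most like a member in pattern, Arid5a was 0.02 in that model and -0.59 to 0.01 with samples left out. Fam189b was 0.01 with upper quartile scaling, 0.08 with the offset, 0.03 with block and offset and -0.21 to 0.12 with samples left out, and Bbs1 was 0.00 with totals drawn down. The number of genes called was 1 in that model (2061 at an unadjusted p under 0.05) and 2721 when the replicate block was combined with the offset, against 4327, and 2620 to 4583 with samples left out. The share of higher calls was 50.3%, 62.1% with upper quartile scaling and 37.3% with the GC content offset.

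The replicate number as a block, over replicates 1 to 3, gave 4120 calls, 3708 of them among the 4327. It changed no call of a member, but Cacna1s failed with the block (adjusted p = 0.0524, edgeR). With block and offset together Cacna1s passed (adjusted p = 0.0480, edgeR), while Cacna1d (0.0537), Kcnd2 (0.0851) and Klhl1 (0.361) failed. Deviations of same-numbered samples correlated at -0.128 to 0.032, within the -0.17 to 0.222 of differently numbered samples. So few pairs cannot settle whether the numbers pair the samples. The shares of Hcn2 and Cacna1g in their families moved by less than 1 SD with the longest transcript as length or with a sample left out. Hcn4 stayed below the limit of detection of a change at this depth.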
